A study of Rattus norvegicus with 12 samples.

Results

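A set of 10 transcription factors that direct the formation and the mature state of pancreatic beta cells was followed through islets of control and growth-restricted rats: Pdx1, Mafa, Nkx6-1, Nkx2-2, Neurod1, Isl1, Pax6, Rfx6, Rfx3 and Mnx1. They were taken by symbol from the count table, with the transcript of the highest mean count for each symbol, and make up 10 of its 25888 gene symbols. All 10 had a transcript and passed the filter on low counts, and Pax6 alone had 2 transcripts, whose counts were nearly the same in every library, from 1853 and 1856 in the lowest to 6949 and 6959 in the third 10-week IUGR library. RNA was sequenced from whole pancreatic islets of Sprague Dawley rats, which hold beta cells together with other endocrine cells and with vascular cells, and the control libraries also held much exocrine RNA. IUGR (intrauterine growth restriction) rats came from dams whose uterine arteries were ligated on both sides at embryonic day 18, and control litters were culled to 8 pups. Each condition was sampled at 2 and at 10 weeks of age with 3 libraries per group, called biological replicates in the study's design text. The sources used here do not give the sex of the rats or whether islets of several animals were pooled for a library. The p-values measure only the spread between libraries of the same group, estimated over all 4 groups in 1 fit.

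As background, these factors form a network that builds endocrine cells and then keeps beta cells able to make and secrete insulin in response to glucose. Pdx1, Neurod1 and Mafa bind the insulin promoter together, Nkx6-1 and Nkx2-2 keep other endocrine programmes off in beta cells, and Isl1, Pax6, Neurod1 and Rfx6 are used by several islet cell types. Mafa is known to appear late, as beta cells mature after birth. Rats with bilateral uterine artery ligation are a known model of diabetes that begins in adult life, and the gene for Pdx1 has been studied in it for changes of chromatin and DNA methylation at its promoter.

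Promoter windows of the members were searched for short motifs of the network. RefSeq (assembly GRCr8, which is not the build of the counts) held a promoter window for 8 of the 10 genes. Neither Mafa nor Rfx6 is among them. Those of 3 genes are printed as the 250 bases before the start of the gene, on the strand of the gene from 5′ to 3′, because each holds letters that another member of the network or a known Pdx1 regulator can bind. Capitals mark those letters: CACGTG, the E-box of the USF proteins, and TGCTGA, a MAF half-site, in Pdx1 at chr12:12799157-12799406 (minus strand), TCAGCA, the same MAF half-site on the other strand, in Neurod1 at chr3:84770455-84770704 (minus strand), and GTTGCC, an RFX half-site, in Rfx3 at chr1:235122423-235122672 (minus strand).
Pdx1: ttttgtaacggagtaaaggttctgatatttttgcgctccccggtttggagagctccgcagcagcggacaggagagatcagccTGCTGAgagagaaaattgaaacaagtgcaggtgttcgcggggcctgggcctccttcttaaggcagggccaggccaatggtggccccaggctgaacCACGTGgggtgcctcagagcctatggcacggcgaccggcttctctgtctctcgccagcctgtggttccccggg
Neurod1: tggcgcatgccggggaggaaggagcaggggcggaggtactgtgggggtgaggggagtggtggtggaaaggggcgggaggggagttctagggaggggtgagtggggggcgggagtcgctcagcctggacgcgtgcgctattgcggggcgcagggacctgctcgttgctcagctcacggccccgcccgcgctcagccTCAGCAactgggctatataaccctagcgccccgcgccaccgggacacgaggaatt
Rfx3: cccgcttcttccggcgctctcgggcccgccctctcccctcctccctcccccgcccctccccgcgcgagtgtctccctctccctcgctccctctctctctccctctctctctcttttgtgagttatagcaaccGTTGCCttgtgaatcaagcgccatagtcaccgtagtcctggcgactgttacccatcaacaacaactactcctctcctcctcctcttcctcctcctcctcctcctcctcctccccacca
Counted back from the start of the gene, the E-box of Pdx1 spans positions -73 to -68 and its MAF half-site -168 to -163, that of Neurod1 spans -55 to -50, and the RFX half-site of Rfx3 spans -118 to -113. Read on both strands over 33469 promoter windows of this length, CACGTG was present in 5.59%, TGCTGA in 15.14% and GTTGCC in 9.89%. The RFX half-site was also found, as GGCAAC, in Isl1 at -111 to -106. Of the other motifs searched, none of CATCTG (an E-box of the Neurod1 type, in 13.96% of all windows), TAATTA (homeodomain, 4.86%), AAGTGG (NK2, 13.68%) and TGTTTAC (FOX, 3.21%) was in any of the 8 windows. None of these motifs overlap each other in the windows of the members. A match of letters is a description and does not show that a factor was bound.

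Libraries differed in how much exocrine RNA they held. Totals ran from 30.4 to 64.2 M counts per library (M, mega). Transcripts of 35 markers of acinar cells, the exocrine cells that make digestive enzymes, took 21.8 to 42.4% of counts in 2-week controls, 4.40 to 9.41% in 2-week IUGR islets, 13.9 to 47.0% in 10-week controls and 0.625 to 2.32% in 10-week IUGR islets, and all 35 were detected in every group. A beta cell list of 10 genes, insulin genes included, took 1.68 to 4.39%, 4.72 to 5.18%, 4.12 to 10.6% and 20.7 to 22.0% in the same order. Beta cell genes were thus found in all libraries, and the acinar share exceeded the beta cell share in all 6 control libraries. It also did in 2-week IUGR replicates 1 (6.35 against 4.72%) and 3 (9.41 against 5.18%), and not in the other IUGR libraries. Alpha cell markers took 0.969 to 3.00%, 2.71 to 4.76%, 0.283 to 0.997% and 0.780 to 1.85%. In such bulk samples fewer cells of a type and less RNA per cell cannot be told apart. Levels below are CPM, the counts of a transcript scaled to a common library size with TMM factors, a scaling that takes most transcripts as unchanged. A second scaling took 19 genes of secretory granules and exocytosis, called the endocrine list here, as its reference, and so asks whether a factor changed relative to other endocrine RNA. It put the median of all transcripts at -0.33 and -0.62 on the log2 scale for IUGR at 2 and 10 weeks. For age in controls and in IUGR islets the median was at -1.16 and -1.38, and for the difference between ages at -0.23.

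**Figure D1:**
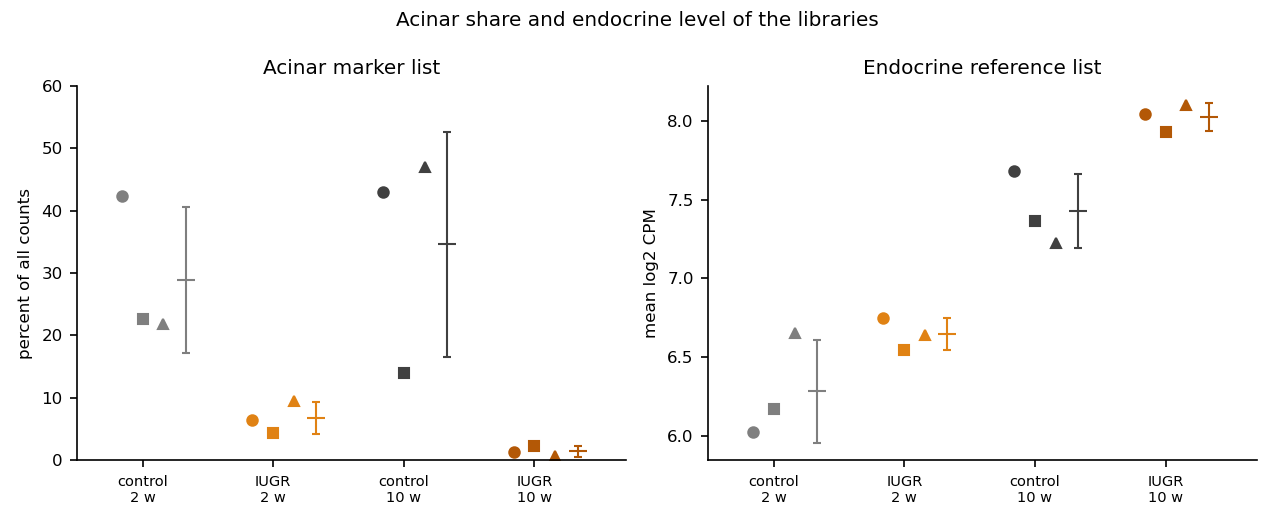
Share of counts in the acinar marker list (left, percent of all counts) and mean log2 CPM of the 19 genes of the endocrine list (right, axis not from 0) in each library; circles, squares and triangles are replicates 1, 2 and 3, and bars give mean ± SD of 3 libraries. Acinar shares of control libraries lie between 13.9 and 47.0%, above those of all IUGR libraries of the same age, and the endocrine level is highest in 10-week IUGR islets.

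Mafa and Nkx6-1, markers of mature beta cells, had the steepest course with age. Mafa, an activator of insulin transcription, stood at 17.8, 20.4 and 28.8 CPM in the 2-week control libraries and at 29.8, 25.1 and 32.0 CPM in 2-week IUGR islets. At 10 weeks it stood at 109, 72.7 and 57.4 CPM in controls and at 107, 112 and 130 CPM in IUGR islets. Every 10-week library was above every 2-week library, while control replicate 1 reached into the IUGR range at 10 weeks. Nkx6-1, a homeodomain factor needed for beta cell identity and glucose-stimulated secretion, was measured at 11.6, 18.6 and 26.1 CPM in 2-week controls and 19.0, 24.9 and 27.4 CPM in 2-week IUGR islets. Its 10-week levels were 79.7, 68.3 and 59.5 CPM in controls and 92.4, 75.02 and 124 CPM in IUGR islets. The ages did not overlap for Nkx6-1, and control and IUGR libraries overlapped at both ages. Beside this, 20.6% of all transcripts were higher at 10 weeks without overlap in controls and 33.9% in IUGR islets.

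Pdx1, the factor whose loss causes pancreatic agenesis and which drives insulin transcription in adult beta cells, had 21.0, 26.1 and 32.5 CPM in 2-week controls and 25.8, 28.8 and 32.7 CPM in 2-week IUGR islets. The 10-week levels of Pdx1 were 61.3, 38.4 and 33.5 CPM in controls and 78.9, 59.5 and 75.9 CPM in IUGR islets. Control replicate 1 was the highest of its group for Pdx1 and lay above the lowest IUGR library, so the 10-week groups overlapped. Mnx1, a homeodomain factor of early pancreas and of beta cell identity, was at 3.43, 4.05 and 5.53 CPM in 2-week controls and at 4.86, 6.01 and 6.35 CPM in 2-week IUGR islets. It was at 9.09, 4.98 and 4.67 CPM in 10-week controls, where replicate 1 again stood high, and at 10.8, 9.56 and 10.2 CPM in 10-week IUGR islets. The 10-week groups did not overlap for Mnx1, as in 21.3% of all transcripts in this direction.

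Neurod1, Pax6, Isl1 and Nkx2-2 act across islet cell types. Neurod1, a basic helix-loop-helix factor that follows Neurog3 in endocrine development, was at 24.1, 27.7 and 41.5 CPM in 2-week controls, 43.5, 38.0 and 40.05 CPM in 2-week IUGR islets, 68.5, 51.9 and 48.6 CPM in 10-week controls and 109, 81.8 and 88.9 CPM in 10-week IUGR islets. Pax6, a paired and homeodomain factor that activates hormone genes, was at 53.1, 62.8 and 95.7 CPM, then 90.0, 76.9 and 82.8 CPM at 2 weeks, and at 120.2, 90.9 and 77.3 CPM, then 193, 172 and 172 CPM at 10 weeks, controls first. For both genes the 10-week IUGR libraries were above all others. Against 10-week controls alone, 21.3% of all transcripts were higher in IUGR islets without overlap. Isl1, a LIM homeodomain factor of all islet hormone cells, took another course, with 17.3, 21.6 and 32.2 CPM in 2-week controls, 32.0, 28.2 and 29.2 CPM in 2-week IUGR islets, 22.0, 16.9 and 15.5 CPM in 10-week controls and 36.2, 34.0 and 29.97 CPM in 10-week IUGR islets. Its ages overlapped in both conditions. Nkx2-2, an NK-family homeodomain factor, was at 4.87, 6.04 and 7.36 CPM in 2-week controls, 7.60, 6.04 and 7.18 CPM in 2-week IUGR islets, 13.5, 11.6 and 7.30 CPM in 10-week controls and 16.4, 12.1 and 17.2 CPM in 10-week IUGR islets. The lowest 10-week control library of Nkx2-2 lay within the 2-week range.

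The pair of RFX winged-helix factors differed from each other. Rfx6, needed for islet formation and for secretion in adult beta cells, was at 24.1, 29.1 and 37.9 CPM in 2-week controls, 30.7, 28.3 and 30.5 CPM in 2-week IUGR islets, 50.5, 46.9 and 39.8 CPM in 10-week controls and 96.3, 82.1 and 81.9 CPM in 10-week IUGR islets. Rfx3, which also governs cilium genes in many cell types, was at 11.4, 10.4 and 10.9 CPM, 9.20, 9.13 and 9.14 CPM, 9.09, 9.85 and 8.73 CPM, and 13.0, 11.3 and 11.7 CPM in the same order. For Rfx6 the 10-week IUGR libraries stood clear of all others. Rfx3 stayed within 8.73 to 13.0 CPM over all 12 libraries. Its 2-week IUGR libraries were all below the 2-week controls and its 10-week IUGR libraries all above the 10-week controls. Of all transcripts, 16.8% were lower in 2-week and 21.3% higher in 10-week IUGR islets without overlap with controls. Counts of different genes also scale with transcript length, which is not used here, so levels are compared between groups and not between genes.

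**Figure D2:**
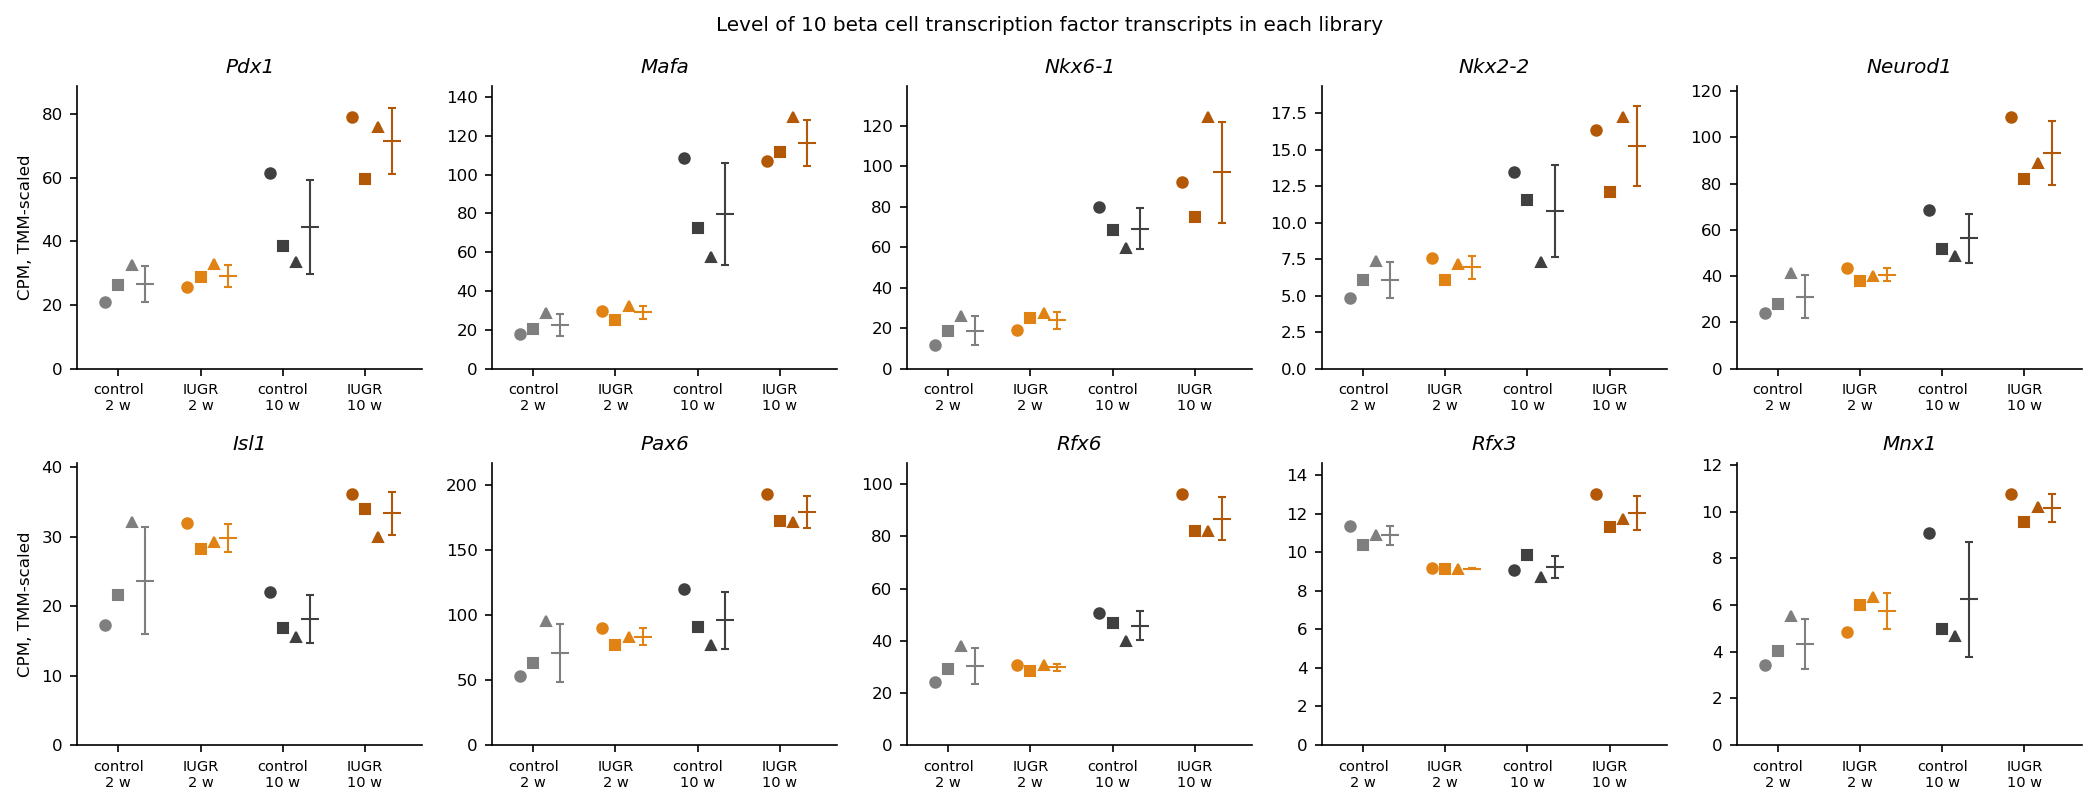
TMM-scaled CPM of the 10 transcription factors (each y axis from 0) in every library; circles, squares and triangles are replicates 1, 2 and 3, and bars give mean ± SD of 3 libraries. Mafa and Nkx6-1 lie at 11.6 to 32.0 CPM at 2 weeks and at 57.4 to 130 CPM at 10 weeks, Isl1 overlaps between ages, and 10-week control replicate 1 is the highest of its group for 9 of the 10 genes, all but Rfx3.

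Between 2 and 10 weeks, Mafa and Nkx6-1 rose in control islets under both scalings, by 1.83 ± 0.24 (log2 fold change ± SE, n = 3 per group, edgeR's quasi-likelihood test, adjusted p = 0.000415) and 1.88 ± 0.28 (adjusted p = 0.000845) with TMM factors, which is 3.56-fold and 3.68-fold. Relative to the endocrine list the rises were 0.68 ± 0.16 (adjusted p = 0.00145) and 0.78 ± 0.21 (adjusted p = 0.00401). Neurod1 (0.86 ± 0.20, adjusted p = 0.00845), Nkx2-2 (0.82 ± 0.23, adjusted p = 0.0196), Pdx1 (0.74 ± 0.23, adjusted p = 0.0289) and Rfx6 (0.59 ± 0.15, adjusted p = 0.0135) also rose with TMM factors, and all 4 turned negative relative to the endocrine list. There Neurod1 was at -0.27 and Nkx2-2 at -0.33 without passing, while Pdx1 fell by 0.42 (adjusted p = 0.0374) and Rfx6 by 0.54 (adjusted p = 0.00371). Pax6 (0.45 ± 0.21), Mnx1 (0.52 ± 0.25), Isl1 (-0.39 ± 0.20) and Rfx3 (-0.24 ± 0.09) did not pass with TMM factors. Relative to the endocrine list, Isl1 fell by 1.503 ± 0.16 (adjusted p = 1.9e-05), Rfx3 by 1.40 ± 0.20, Pax6 by 0.68 ± 0.15 and Mnx1 by 0.64 ± 0.21, the latter 2 after a positive value with TMM factors.

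In count, 6 of 10 members were higher in 10-week controls with TMM factors, beside 17.2% of all 20733 transcripts tested, and none was lower, beside 15.1%. With the endocrine scaling 2 were higher and 6 lower, beside 1.64% and 80.7% of all transcripts. The median log2 fold change of the members was 0.67 with TMM factors, beside 0.00 over all transcripts. Mafa and Nkx6-1 passed in all 25 alternative analyses. The calls of Pdx1 and Nkx2-2 were lost without 2-week control replicate 1 (0.60 and 0.69), without 2-week control replicate 2 (0.73 and 0.81) and without 10-week control replicate 1 (0.42 and 0.62), and that of Rfx6 without either of the last 2 (0.56 and 0.49). Isl1 passed as lower without 2-week control replicate 1 (-0.57), and Pax6 as higher without 2-week control replicate 3 (0.73).

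In IUGR islets 9 of 10 members rose with age under TMM factors, beside 27.3% of all transcripts called higher and 56.5% called in either direction. Of the 9, Mafa and Nkx6-1 also rose relative to the endocrine list, Rfx6 was positive without passing, and the other 6 turned negative, where 1.49% of all transcripts were higher and 84.7% lower. Nkx6-1 rose by 2.03 ± 0.28 (adjusted p = 0.00013) with TMM factors and 0.63 ± 0.21 with the endocrine scaling, and Mafa by 2.00 ± 0.24 (adjusted p = 4.85e-05) and 0.62 ± 0.16. Rfx6 rose by 1.54 ± 0.15 with TMM factors and was at 0.16 ± 0.14 relative to the endocrine list. TMM values of 1.30 for Pdx1, 1.20 for Neurod1, 1.14 for Nkx2-2 and 1.11 for Pax6 stood beside -0.10, -0.18, -0.25 and -0.27, which did not pass. Rfx3 and Mnx1 passed in opposite directions, at 0.39 and 0.83 with TMM factors and at -0.99 and -0.56 relative to the endocrine list. Isl1, at 0.16 ± 0.20 with TMM factors, fell by 1.21 ± 0.15 in the endocrine scaling. The members' median was 1.17 with TMM factors, beside 0.00 over all transcripts. With the mean level of the acinar list as a covariate, 2 members were called, Mafa (1.82 ± 0.45) and Rfx6 (1.37 ± 0.29), and standard errors were larger. Among those not called, Pdx1 was at 1.19 ± 0.45 (adjusted p = 0.0616), Nkx6-1 at 1.36 ± 0.49 (adjusted p = 0.0509) and Nkx2-2 at 0.59 ± 0.40 (adjusted p = 0.275). Mnx1 did not pass without 2-week IUGR replicate 1 (0.72).

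More transcripts differed between IUGR and control islets at 10 weeks than at 2 weeks. With TMM factors 6 of 10 members were higher in IUGR islets, beside 12.4% of all transcripts called higher and 27.9% called in either direction, and relative to the endocrine list none passed, where 0.241% of all transcripts were higher and 45.8% lower, and Rfx3 turned negative. Rfx6 was higher by 0.92 ± 0.15 (edgeR's quasi-likelihood test, adjusted p = 0.00273), a 1.90-fold difference, and stood at 0.33 ± 0.14 (adjusted p = 0.073) in the endocrine scaling. Pax6 was higher by 0.90 ± 0.21 (adjusted p = 0.0113), Isl1 by 0.88 ± 0.20 (adjusted p = 0.0109), Neurod1 by 0.73 ± 0.20 (adjusted p = 0.0215), Pdx1 by 0.68 ± 0.23 (adjusted p = 0.0437) and Rfx3 by 0.38 ± 0.09 (adjusted p = 0.0106). Their values relative to the endocrine list were 0.32, 0.30, 0.14, 0.12 and -0.23. Mnx1 (0.70 ± 0.25, adjusted p = 0.0564), Mafa (0.55 ± 0.23, adjusted p = 0.0964), Nkx2-2 (0.50 ± 0.23, adjusted p = 0.121) and Nkx6-1 (0.49 ± 0.27, adjusted p = 0.195) did not pass, and the last 3 were at -0.02, -0.08 and -0.11 in the endocrine scaling. The members' median was 0.69 with TMM factors, beside -0.01 over all transcripts.

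Acinar shares of these 10-week libraries were 13.9 to 47.0% in controls and 0.625 to 2.32% in IUGR islets. Because these shares did not overlap, the fits given here cannot tell acinar content and IUGR apart. With the acinar level as a covariate no member passed at 10 weeks, while 167 of all 20733 transcripts still did. At an unadjusted p under 0.05 by edgeR there were 0 members, beside 4294 of all transcripts. Standard errors rose, for Rfx6 to 0.44 around 0.64. Without both 10-week control libraries of an acinar share above 40%, which leaves a lone 10-week control taken to vary like the other groups, Rfx6 (0.91), Pax6 (1.001), Isl1 (1.003), Pdx1 (0.92) and Mnx1 (1.05) passed, while the calls of Neurod1 (0.87, adjusted p = 0.0577) and Rfx3 (0.31, adjusted p = 0.106) were lost. Without all 3 control libraries of such a share, an alternative chosen after seeing the data, Neurod1 (0.84) and Mafa (0.67) passed as well and Rfx3 did not (0.28, adjusted p = 0.129). The Pdx1 call was lost without any of 8 single libraries: 10-week control replicates 2 (0.60) and 3 (0.52), 10-week IUGR replicates 1 (0.61) and 3 (0.64), and 2-week control replicate 2 and 2-week IUGR replicates 1, 2 and 3 (each 0.69). It was also lost in a fit of the 6 libraries compared (0.67), as was that of Rfx3 (0.37). The call of Neurod1 was lost without 10-week control replicate 2 (0.69), 10-week control replicate 3 (0.64) or 10-week IUGR replicate 1 (0.60). Pax6 missed without 10-week control replicate 3 (0.77). Without 10-week control replicate 1, Mafa (0.88), Nkx2-2 (0.73) and Mnx1 (1.12) passed as higher as well, and Mnx1 also did without 2-week control replicate 1 or 3 (both 0.71).

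At 2 weeks no member passed between IUGR and control islets by edgeR's quasi-likelihood test or by DESeq2, beside 3.88% of all transcripts called by edgeR in either direction (1.66% higher and 2.21% lower). None passed relative to the endocrine list either, beside 0.0386% of all transcripts higher and 3.79% lower. Log2 fold changes ran from -0.25 to 0.40 with a median of 0.29, beside 0.05 over all transcripts. Rfx3 alone had an unadjusted p under 0.05 in edgeR, beside 5939 of all 20733 transcripts. It was at -0.25 ± 0.09 (adjusted p = 0.102), with groups that did not overlap, as in 16.8% of all transcripts in this direction. Relative to the endocrine list it stood at -0.63 ± 0.20 (adjusted p = 0.0673). Rfx6 was at -0.03 ± 0.15, Pdx1 at 0.13 ± 0.23 and Mafa at 0.38 ± 0.23 with TMM factors. Relative to the endocrine list Rfx6 was at -0.37, Pdx1 at -0.21 and Mafa at 0.04. Leaving out 2-week control replicate 3 brought 2 members past the threshold, Neurod1 (0.64) and Isl1 (0.62).

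Rfx6 and Rfx3 were the 2 members whose IUGR effect differed between ages. The 10-week effect exceeded the 2-week effect by 0.95 ± 0.21 for Rfx6 (edgeR's quasi-likelihood test of the interaction, n = 3 per group, adjusted p = 0.0155) and by 0.63 ± 0.12 for Rfx3 (adjusted p = 0.00872). These 2 of 10 stand beside 3.97% of all transcripts called in this direction, and the members' median was 0.45 beside 0.00. Relative to the endocrine list the difference was 0.69 ± 0.20 for Rfx6 (adjusted p = 0.0482) and 0.41 ± 0.28 for Rfx3 (adjusted p = 0.498), where 0.164% of all transcripts were called in this direction and 9.0% in the other, and with the acinar covariate neither passed (0.80 and 0.57, adjusted p = 0.108 and 0.0528). Both passed without both acinar-rich 10-week controls (0.91 and 0.53, adjusted p = 0.046 and 0.0416). Without all 3 acinar-rich controls Rfx6 (1.03, adjusted p = 0.0116) and Pdx1 (0.88, adjusted p = 0.0479) passed and Rfx3 did not (0.48, adjusted p = 0.0715). The other 8 members had positive differences of 0.15 to 0.66 with TMM factors that did not pass, and Mafa and Nkx6-1 turned to -0.06 and -0.15 in the endocrine scaling. Without 10-week control replicate 1, Pdx1 (0.95) and Pax6 (0.94) also passed.

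**Figure D3:**
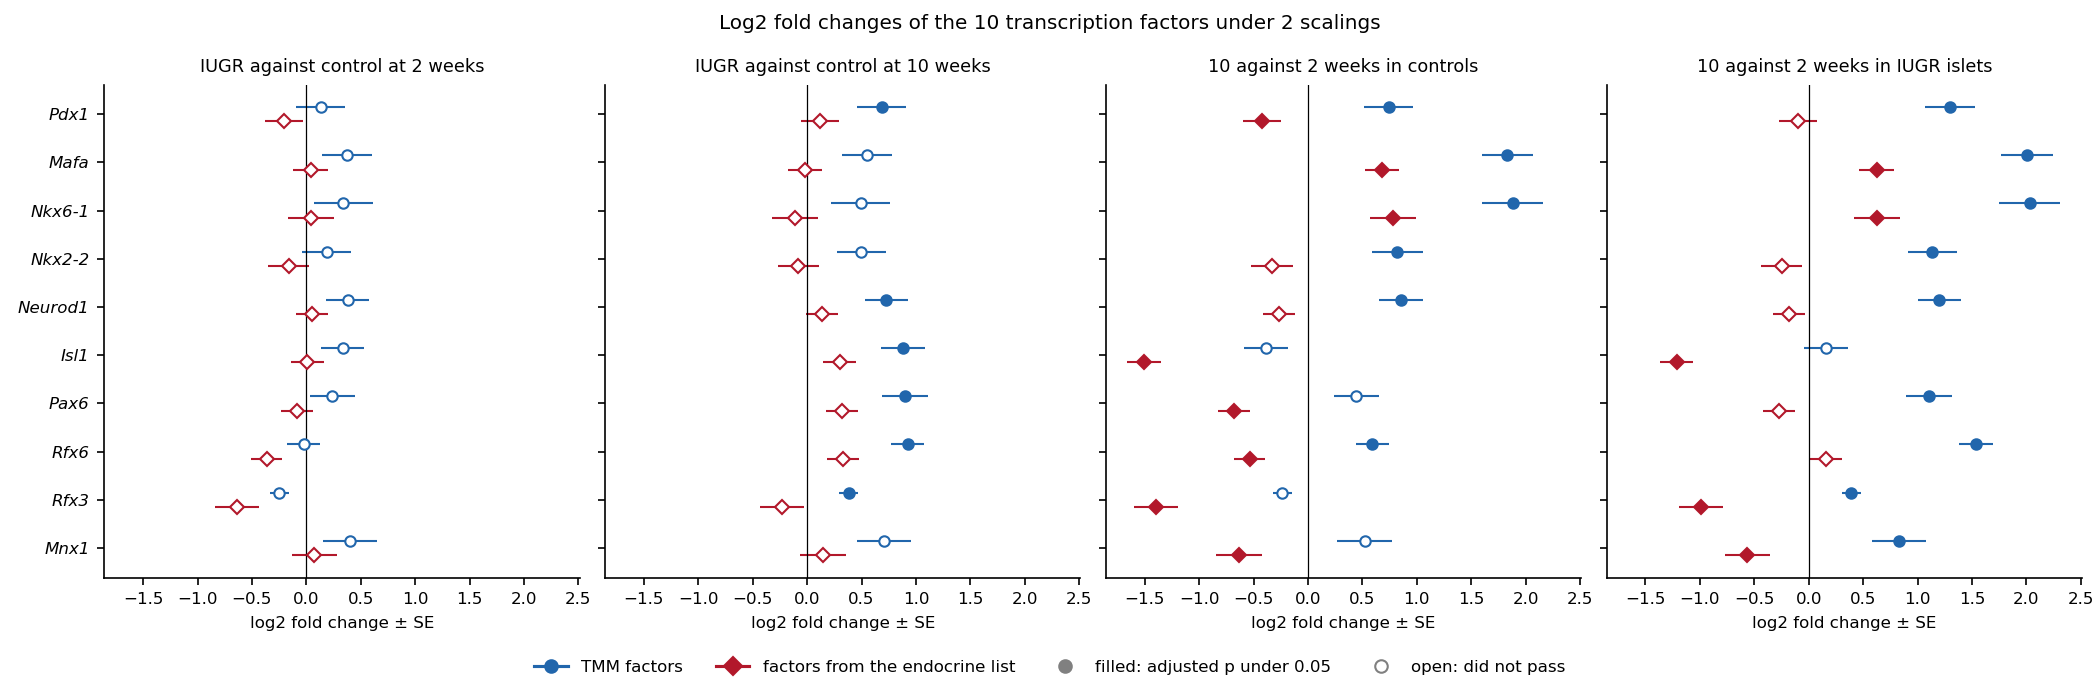
Log2 fold change ± SE of each factor in 4 comparisons (panels), with TMM factors (blue circles) and with factors from the endocrine list (red diamonds); filled symbols passed an adjusted p under 0.05. At 10 weeks 6 blue and 0 red symbols are filled between IUGR and control islets, and in both age comparisons Mafa and Nkx6-1 are filled on the right of 0 under both scalings while Isl1 is filled on the left under the endocrine scaling alone.

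Ratios between members within a library do not depend on any scaling, but they do depend on the mix of cells in it. Alpha cell markers took a mean of 1.78 and 0.52% of counts in 2-week and 10-week controls, and 3.67 and 1.43% in IUGR islets. Beta cell markers took 2.94 and 7.23% in controls and 4.87 and 21.5% in IUGR islets. The part of the cell mix in the ratios was not tested. The ratios are log2 ratios of counts with 0.5 added, and only their differences between groups are read. Mafa over Isl1 was 0.04, -0.08 and -0.16 in 2-week controls and -0.11, -0.17 and 0.13 in 2-week IUGR islets. At 10 weeks the same ratio was 2.30, 2.10 and 1.88 in controls and 1.57, 1.72 and 2.11 in IUGR islets. The mean ratio was thus higher at 10 weeks by 2.17 in controls and by 1.85 in IUGR islets, 4.49-fold and 3.60-fold, with no overlap between ages. Nkx6-1 over Isl1 was higher by 2.30 and 1.86 at 10 weeks, and Pdx1 over Nkx6-1 was lower by 1.23 and 0.72, again without overlap. Mafa over Nkx6-1 overlapped between ages, with changes of -0.14 in controls and -0.01 in IUGR islets, so that this pair kept its balance within the spread of the libraries. Pairs named here were chosen after their values had been seen.

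Among all 45 pairs of members, the ratios of 32 (71.1%) did not overlap between ages in controls and those of 34 (75.6%) in IUGR islets. Beside this, 43.7% and 74.0% of the pairs among 13507 genes with a mean log2 CPM of at least 1 did not overlap. Between IUGR and control islets 14 pairs (31.1%) did not overlap at 2 weeks and 5 (11.1%) at 10 weeks, beside 41.9% and 43.8% of all pairs. These pairs share genes and libraries, so their counts are a description. At 10 weeks the 5 were Rfx6, Pax6 and Isl1 each over Rfx3, higher in IUGR islets by 0.55, 0.54 and 0.51, and Neurod1 over Isl1 and over Pax6, lower by 0.16 and 0.19. Acinar markers took a mean of 34.6% of counts in 10-week controls and 1.40% in 10-week IUGR islets. The part of the cell mix in these ratios was not tested. Rfx6 over Rfx3 was 2.47, 2.25 and 2.19 in 10-week controls and 2.88, 2.86 and 2.80 in 10-week IUGR islets. At 2 weeks it was 1.08, 1.49 and 1.80 in controls and 1.74, 1.63 and 1.74 in IUGR islets, which overlapped.

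**Figure D4:**
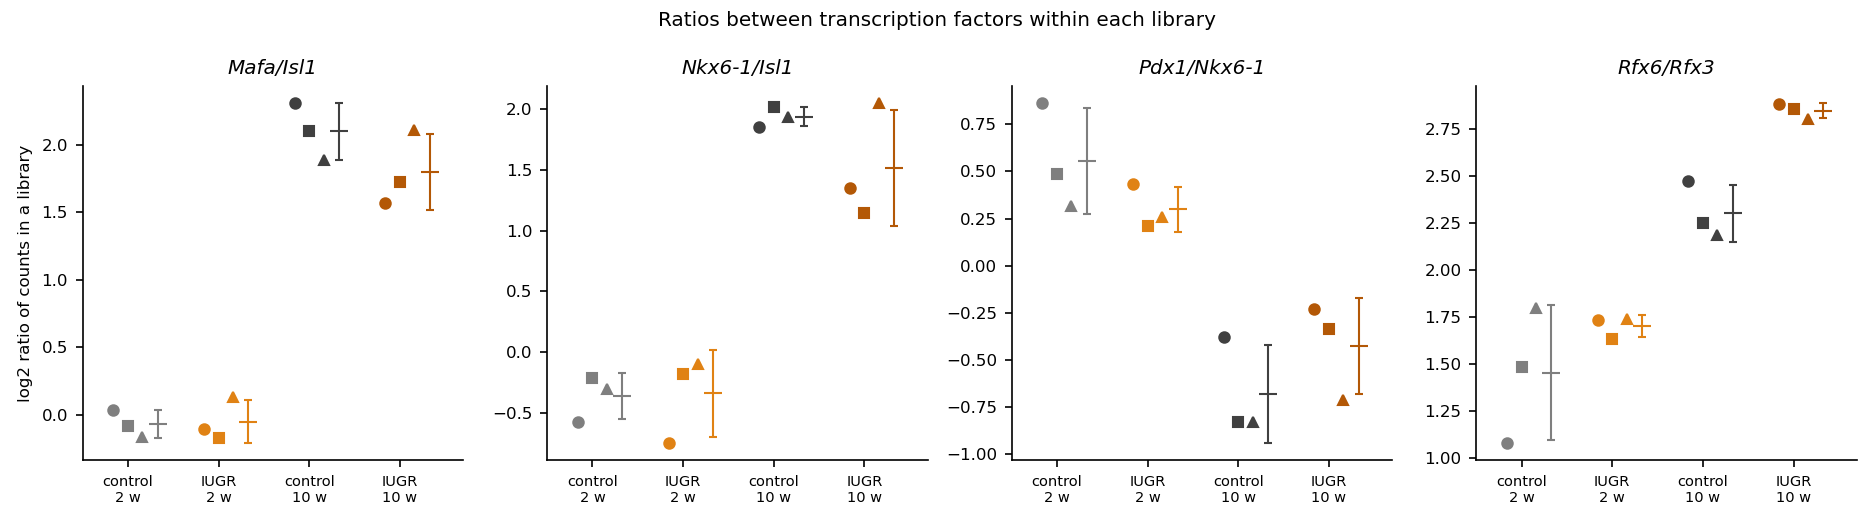
Log2 ratio of the counts of 2 transcription factors within each library for 4 pairs (axes not from 0); circles, squares and triangles are replicates 1, 2 and 3, and bars give mean ± SD of 3 libraries. Mafa over Isl1 lies between -0.17 and 0.13 at 2 weeks and between 1.57 and 2.30 at 10 weeks, and Rfx6 over Rfx3 is above 2.80 in all 10-week IUGR libraries and at most 2.47 in 10-week controls.

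The members were compared by the shape of their profile over the 12 libraries. Likeness was taken as the root mean square difference of log2 CPM profiles, each centred on its own mean, among 11427 genes. Mafa was nearest to Nkx6-1 (0.24) and Pdx1 to Nkx2-2 (0.17). Neurod1 was nearest to Pax6 (0.16), Rfx6 to Neurod1 (0.18) and Mnx1 to Pax6 (0.19), while Isl1 and Rfx3, each other's nearest members, were 0.38 apart. Isl1 and Nkx6-1 were the farthest pair (1.08). The mean profile of the 10 was closest to Rgag4 (0.07), Fam155a (0.07), Bhlhe41 (0.08), Nol4 (0.09), Ociad2 (0.09), Bex2 (0.10), Soga3 (0.10) and Syt17 (0.10), where the median gene was at 0.61. For single members the nearest other genes were Hpgd for Mafa (0.10), Lppr4 for Nkx6-1 (0.18), Bhlhe41 for Pdx1 and Nkx2-2 (0.14 and 0.12), Cadps for Neurod1 (0.09), Nudt11 for Isl1 (0.14), Sphkap for Pax6 (0.10), Gstz1 for Rfx6 (0.11), Cbll1 for Rfx3 (0.08) and Kcnj11, a subunit of the ATP-sensitive potassium channel, for Mnx1 (0.17). All profiles share the same libraries, whose depth and acinar share differ, and no test was made.

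Other endocrine transcription factors moved in both directions with age. Of 24 tested, 3 were higher and 7 lower in 10-week controls, beside 17.2% and 15.1% of all transcripts, and 8 were higher and 11 lower in 10-week IUGR islets, beside 27.3% and 29.2%. In the endocrine scaling 1 was higher and 21 lower in controls, and 1 higher and 19 lower in IUGR islets, beside 80.7% and 84.7% of all transcripts lower. Pou3f4 and Irx1, factors of alpha cells, fell with age in controls by 1.91 and 1.41 (edgeR, TMM factors). The summed share of 11 alpha cell markers was 0.969 to 3.00% in 2-week and 0.283 to 0.997% in 10-week controls, and its part in these falls was not tested. St18, a zinc finger factor, rose by 1.15 ± 0.19 and Neurod4 by 2.08 ± 0.35 with TMM factors in controls, and relative to the endocrine list Neurod4 still rose (0.99) while St18 was at 0.04. Nkx6-3 passed as lower at levels of at most 0.275 CPM, with 0 counts in 2 of the 10-week control libraries. Neurog3, the trigger of endocrine differentiation, did not pass in any comparison and was at 0.073 to 0.585 CPM.

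At 10 weeks 5 of these 24 factors were higher in IUGR islets, beside 12.4% of all transcripts, and 1, Nr5a2, was lower (-2.74), beside 15.5%. Relative to the endocrine list 0 were higher and 4 lower, beside 0.241% and 45.8% of all transcripts. The 5 were Myt1 (0.67), St18 (0.68), Mlxipl (0.60), Foxa2 (0.52) and Glis3 (0.46), and in the endocrine scaling they were at 0.08, 0.09, -0.01, -0.07 and -0.15. Foxa2, a pioneer factor that binds the Pdx1 locus, and Mlxipl, a glucose-responsive factor, were also the 2 whose IUGR effect was greater at 10 than at 2 weeks, by 0.73 ± 0.18 (adjusted p = 0.0232) and 1.31 ± 0.23 (adjusted p = 0.00663). Mlxipl kept this in the endocrine scaling (1.07, adjusted p = 0.0166) and Foxa2 did not pass (0.53, adjusted p = 0.288). Mlxipl was also the 1 factor of this list called at 2 weeks, lower in IUGR islets by 0.71 with TMM factors and by 1.07 relative to the endocrine list.

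Among transcription factors of progenitors and exocrine cells none was called higher with TMM factors in these 4 comparisons. Of 13 tested, 6 were lower in 10-week IUGR islets against controls, beside 15.5% of all transcripts, and 1 at 2 weeks, beside 2.21%. At 2 weeks 9 had an unadjusted p under 0.05 by edgeR, beside 5939 of all 20733 transcripts. With age 8 were lower in IUGR islets, beside 29.2%, and 5 in controls, beside 15.1%. Acinar shares were lower in IUGR islets than in controls at both ages without overlap, while those of controls overlapped between ages. Their part in these counts was not tested beyond the covariate, which cannot tell acinar content and IUGR apart. Ptf1a and Rbpjl, 2 subunits of the complex that activates digestive enzyme genes, were lower by 5.17 ± 0.77 and 5.27 ± 0.75 at 10 weeks. Ptf1a was at 28.5, 4.11 and 34.8 CPM in 10-week controls, with the lowest value in replicate 2, the control library with the lowest acinar share (13.9%), and at 0.668, 0.947 and 0.247 CPM in 10-week IUGR islets. Hes1, the Notch target that holds back endocrine differentiation, fell with age in IUGR islets by 2.02 ± 0.20 and was lower by 1.10 ± 0.20 against controls at 10 weeks. Gata4 (-3.25), Nr5a2 (-2.74) and Gata6 (-0.88) were also lower at 10 weeks. The 5 that fell with age in controls included Gata6 (-1.19), Prox1 (-1.07), Sox9 (-1.80) and Onecut1 (-1.74). With the acinar covariate no factor of this list was called at 10 weeks between IUGR and control islets, beside 167 of all 20733 transcripts. By edgeR 1 was at an unadjusted p under 0.05, beside 4294 of all transcripts. DESeq2 without the covariate called 8, beside 6896 of all transcripts.

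Partners and coregulators of the members, which bind them, modify them or compete with them, were called lower more often than higher with age. Of 38 tested, 2 rose and 13 fell in controls, beside 17.2% and 15.1% of all transcripts, and 7 rose and 16 fell in IUGR islets, beside 27.3% and 29.2%. In the endocrine scaling 0 were higher, beside 1.64% and 1.49% of all transcripts, and 37 and 38 were lower, beside 80.7% and 84.7%. At 10 weeks 3 were higher and 5 lower in IUGR islets against controls, beside 12.4% and 15.5%. Inhibitors of helix-loop-helix factors such as Neurod1 fell with age in IUGR islets, Id4 by 3.27 ± 0.28, Id3 by 2.47 ± 0.28, Id1 by 2.01 ± 0.22 and Id2 by 1.77 ± 0.14. Ldb2, a partner of LIM factors such as Isl1 that is also known from endothelial cells, fell by 2.71 ± 0.20. In 10-week IUGR islets against controls Ldb2 (-1.56), Id4 (-1.82), Id2 (-0.95) and the LIM-only protein Lmo4 (-1.33) were lower, and the effects of Ldb2, Id2, Id4, Id3 and Lmo4 differed from those at 2 weeks, by -2.13, -1.36, -2.53, -1.47 and -1.17. The 14 endothelial markers took 0.157 to 0.189% of counts in 2-week and 0.0602 to 0.0816% in 10-week IUGR islets, and 15 mesenchymal markers 1.56 to 1.85% and 0.0841 to 0.108%. The part of these cells in the falls was not tested. Meis1, a partner of Pdx1 and Pbx proteins, fell in controls by 0.79 ± 0.09 and in IUGR islets by 0.88 ± 0.09. Trim33 (0.41) and Pbx2 (0.32) were higher in 10-week IUGR islets with TMM factors and stood at -0.20 and -0.30 relative to the endocrine list.

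Known regulators of the Pdx1 locus were compared between IUGR and control islets by edgeR's quasi-likelihood test. Of 18 tested, none was called at 2 weeks, beside 3.88% of all transcripts. At an unadjusted p under 0.05 there were 3, beside 5939 of all 20733 transcripts. DESeq2 called 3, beside 3166 of all transcripts. At 10 weeks 1 was higher, Foxa2, beside 12.4% of all transcripts, and 1 lower, Usf2 (-0.24 ± 0.08, adjusted p = 0.0493), beside 15.5%. In the endocrine scaling 0 were higher and 11 lower, beside 45.8% of all transcripts lower. Usf2 is a USF protein, whose E-box has the letters CACGTG marked above, and binding was not measured. Usf1, its partner, was at 0.10 ± 0.08 at 2 weeks and -0.06 ± 0.08 at 10 weeks with TMM factors. More of them were called with age, as were more of all transcripts (32.3% in controls and 56.5% in IUGR islets, in either direction). The DNA methyltransferases fell in controls, Dnmt3b by 1.23 ± 0.20, Dnmt3a by 0.78 ± 0.11 and Dnmt1 by 0.71 ± 0.14, and in IUGR islets by 1.06, 0.67 and 0.94. In all, 6 regulators fell and 1 rose with age in controls, beside 15.1% and 17.2% of all transcripts, and 8 fell and 2 rose in IUGR islets, beside 29.2% and 27.3%. Setd7, a lysine methyltransferase that Pdx1 recruits to the insulin gene, rose by 0.75 ± 0.17 and 0.81 ± 0.17 with TMM factors and turned to -0.38 and -0.57 relative to the endocrine list.

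Most target genes of the factors rose with age under TMM factors, and fewer did in the endocrine scaling. Of 32 tested, 21 were higher and 3 lower in 10-week controls, beside 17.2% and 15.1% of all transcripts. In 10-week IUGR islets 27 were higher and 3 lower, beside 27.3% and 29.2%. In the endocrine scaling 7 were higher and 11 lower in controls, beside 1.64% and 80.7% of all transcripts. There 12 were higher and 11 lower in IUGR islets, beside 1.49% and 84.7%. The reference list of this scaling holds 4 of these targets (Chga, Chgb, Ptprn and Abcc8). Prlr, the prolactin receptor, rose by 3.17 ± 0.18 in controls and 3.77 ± 0.19 in IUGR islets. The glucose transporter gene Slc2a2 rose by 2.37 ± 0.22 and 3.05 ± 0.22, the granule protein gene Ptprn by 2.91 and 2.91, Syt4 by 2.87 and 3.21 and Ppp1r1a by 1.87 and 2.16, and all 5 also rose relative to the endocrine list. Ins1 and Ins2 rose by 1.96 ± 0.39 and 1.94 ± 0.36 in controls and by 2.34 and 2.31 in IUGR islets with TMM factors, and stood at 0.83 and 0.81, then 0.96 and 0.93, relative to the endocrine list without passing. Nnat, an imprinted gene of secretory cells, fell by 1.63 and 1.53.

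At 10 weeks 18 of 32 targets were higher in IUGR islets with TMM factors, beside 12.4% of all transcripts, and none was lower, beside 15.5%. In the endocrine scaling 1 was higher and 1 lower, beside 0.241% and 45.8% of all transcripts. Chga (1.43 ± 0.25), Slc2a2 (1.003 ± 0.21), Syt4 (0.99 ± 0.22), Robo2 (0.89 ± 0.22), Tmem27 (0.85 ± 0.20) and Prlr (0.77 ± 0.17) had the smallest p, and stood at 0.86, 0.41, 0.42, 0.30, 0.25 and 0.19 relative to the endocrine list. Ins1 (0.70 ± 0.38, adjusted p = 0.188) and Ins2 (0.73 ± 0.35, adjusted p = 0.143) did not pass. With the acinar covariate no target was called at 10 weeks, beside 167 of all 20733 transcripts. By edgeR 2 were at an unadjusted p under 0.05, beside 4294 of all transcripts. DESeq2 without the covariate called 23 higher, where it called 6896 of all transcripts, 46.2% of them higher. With TMM factors the IUGR effect was greater at 10 than at 2 weeks for 4 targets, beside 3.97% of all transcripts. These were Mlxipl (1.31), Gipr, the receptor of an incretin hormone (1.48 ± 0.30), Ero1lb (1.15) and Cacna1d (0.69). Of the 4, Gipr (1.22, edgeR, adjusted p = 0.007) and Mlxipl also passed in the endocrine scaling, beside 0.164% of all transcripts.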

How the data were processed

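RNA of 12 islet libraries was sequenced after ribosomal RNA depletion with a stranded kit, per the labels' protocols, from RNA with an integrity number above 7. TopHat2 2.0.9 and bedtools appear in the submitters' processing notes, as do 2 builds, rn5 and mm9, with no role stated. Counting rule, strand setting and annotation release: not given in the sources used here. What the authors deposited are raw counts per Ensembl transcript, whole numbers with no normalization, for 30309 transcripts, and a read can be counted for several transcripts of a gene, as both Pax6 transcripts show. Total counts were 30.4 to 64.2 M per library.

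Unchanged counts went into edgeR 4.0.16 (R 4.3.3) with filterByExpr, TMM factors, 4 groups in 1 fit and robust quasi-likelihood F tests. Benjamini-Hochberg adjustment ran over the 20733 transcripts tested, and an adjusted p under 0.05 passed. SE is the size of the log2 fold change divided by the root of F. The members, lists, rule for naming genes (all members, the 6 or fewer genes per list that had the lowest p, and Ins1, Ins2 and Neurog3; some genes that the rule names are not reported here), tests and alternatives were chosen with earlier results of these data known, so none is independent support. Alternatives were DESeq2 1.42.0, RLE factors, factors from the endocrine list, scaling without the acinar list and the 20 most abundant transcripts, the acinar level as covariate, no filter, a threshold of 0.1, a block for the replicate number, fits of 6 libraries, 1 transcript or summed counts per symbol, and libraries left out. No pair of libraries agreed within sampling noise, and replicate numbers were not taken as pairs, since correlations of same-numbered deviations ran from -0.137 to 0.478. The steps were tested on simulated data.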

Additional observations from a re-analysis of the deposited data

Results flagged for a closer look

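Rfx6 and Rfx3 are the members whose IUGR effect differed between 10 and 2 weeks by the interaction term of edgeR's quasi-likelihood test. For Rfx6 the 10-week effect was greater by 0.949 on the log2 scale (adjusted p = 0.0155), from -0.03 at 2 weeks to 0.92 at 10 weeks, and the difference passed in the endocrine scaling as well (0.69). For Rfx3 it was greater by 0.6293 (adjusted p = 0.00872), from -0.25 to 0.38, with IUGR libraries all below controls at 2 weeks and all above them at 10 weeks. Groups did not overlap in these directions in 16.8% and 21.3% of all transcripts. In the endocrine scaling Rfx3 did not pass and was negative at both ages (-0.63 and -0.23). Acinar shares were lower in IUGR than in control libraries at both ages without overlap. Their part in these differences was not tested beyond 3 fits, which cannot tell acinar content and IUGR apart. With the acinar covariate neither passed. Without both acinar-rich 10-week controls both did (0.91 for Rfx6 and 0.53 for Rfx3). Without all 3 acinar-rich controls Rfx6 passed (1.03) and Rfx3 did not (0.48, adjusted p = 0.0715).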

How the results depend on the processing

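DESeq2 added Mnx1 at 10 weeks (0.71) and changed no other call of a member. Factors from the endocrine list left 0 of 10 members higher in IUGR islets at 10 weeks, 1 for the difference between ages, 2 higher and 6 lower with age in controls, and 2 higher and 3 lower with age in IUGR islets, with 9552, 1899, 17077 and 17870 transcripts called in place of 5776, 2973, 6693 and 11717. Of the transcripts called, the share that was higher was 42.9% at 2 weeks, 44.5% at 10 weeks, 27.7% for the difference, 53.2% with age in controls and 48.3% in IUGR islets, and under this scaling 1.01%, 0.523%, 1.79%, 2.00% and 1.72%. At 2 weeks it was 56.1% with DESeq2 and 54.4% when the acinar list and the 20 most abundant transcripts were left out of the scaling.

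Signs turned under the endocrine scaling at 2 weeks for Pdx1 (-0.21), Nkx2-2 (-0.16) and Pax6 (-0.087), at 10 weeks for Mafa (-0.018), Nkx6-1 (-0.11), Nkx2-2 (-0.083) and Rfx3 (-0.23), and in the difference for Mafa (-0.057) and Nkx6-1 (-0.15). With age in controls they turned for Pdx1 (-0.42), Nkx2-2 (-0.33), Neurod1 (-0.27), Pax6 (-0.68), Rfx6 (-0.54) and Mnx1 (-0.64), and in IUGR islets for Pdx1 (-0.098), Nkx2-2 (-0.25), Neurod1 (-0.18), Isl1 (-1.21), Pax6 (-0.27), Rfx3 (-0.99) and Mnx1 (-0.56). Leaving the acinar list and the most abundant transcripts out of the scaling put Rfx6 at 0.0019 at 2 weeks and ended the Pdx1 call at 10 weeks (0.66). The cause was not tested.

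With the acinar covariate 0 members were called at 10 weeks, 0 for the difference and 2 with age in IUGR islets, where 7778 transcripts were called, beside 167 at 10 weeks and 0 at 2 weeks by edgeR (2009 at an unadjusted p under 0.05, and 3166 called by DESeq2 without the covariate). Nkx6-1 and Nkx2-2 turned negative with it at 2 weeks (-0.14 and -0.23), at 10 weeks (-0.61 and -0.41) and in the difference (-0.47 and -0.17). Without both acinar-rich 10-week controls 3 members were higher with age in controls (3690 transcripts) and 1807 transcripts were called at 2 weeks. An alternative chosen after seeing the data, without all 3 control libraries with an acinar share above 40%, also gave 3 (3625 transcripts).

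At 2 weeks 804 transcripts were called, 149 with no filter, 3021 at an adjusted p under 0.1 and 0 by edgeR with only the 6 libraries of the comparison (6239 at an unadjusted p under 0.05). Fits of 6 libraries called 3472 at 10 weeks and 3448 with age in controls, where 3 members were higher. An adjusted p under 0.1 gave 4735 transcripts for the difference and 1 member lower with age in controls.

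With single libraries left out, members called higher ranged from 0 to 2 at 2 weeks, 3 to 9 at 10 weeks, 2 to 4 for the difference, 3 to 7 with age in controls, where 0 to 1 were lower, and 8 to 9 in IUGR islets. Transcripts called ranged from 0 to 2350 at 2 weeks, 2971 (without 10-week control replicate 3) to 7021 at 10 weeks, 1759 (without 2-week IUGR replicate 2) to 4983 (without 10-week control replicate 1) for the difference, 4552 to 6833 with age in controls and 10067 to 12596 in IUGR islets. The 2-week count was 17 and 5 without control replicates 1 and 2, 2350 without control replicate 3, 0, 9 and 0 without IUGR replicates 1, 2 and 3, 1804 and 285 without 10-week control replicates 2 and 3, and 92, 123 and 110 without 10-week IUGR replicates 1, 2 and 3. Of the other counts, 3785 were called at 10 weeks without 10-week IUGR replicate 1, and 1819 and 1943 for the difference without 2-week IUGR replicate 1 and 10-week control replicate 3. At 2 weeks Pdx1 ranged from -0.011 (without control replicate 1) to 0.30, and Rfx6 turned positive without control replicate 3 (0.17) or IUGR replicate 2 (0.010). In the difference Mafa ranged from -0.054 to 0.55 and Nkx6-1 from -0.16 to 0.40, both lowest without 2-week control replicate 3, and Nkx6-1 was at -0.063 without 10-week IUGR replicate 3. None of the values with a turned sign passed.

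With the replicate number as a block 1223 transcripts were called at 2 weeks, the Pdx1 call at 10 weeks was lost (0.68, adjusted p = 0.0558), and no other call of a member changed. Nothing in the labels pairs same-numbered samples, and 8 of 18 correlations of their deviations were over 0.1, where pairing was taken to need all. In 19 of 36 checks a sample correlated best with its own number, against 12 if numbers had no part, a hint from the data and not the design. With 3 libraries a group, a difference that was not called may still be present. Calls did not follow size alone, as at 10 weeks Rfx3 passed at 0.38 ± 0.09 and Mnx1 at 0.70 ± 0.25 did not.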
